A study of Mus musculus with 8 samples.

Results

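The respiratory chain and ATP synthase genes of mouse thoracic aorta are described here in mice without Fto (Fto -/-) and in mice that carry it (Fto +/+). Members were taken by their symbols: the subunit genes of complexes I to IV, those of ATP synthase (complex V), Cyc1, and Cycs, which encodes the mobile carrier cytochrome c. Cox7a1 and Cox8b, which are muscle and brown fat isoforms of complex IV, match by symbol and were left out by name. Of the other matching symbols of the gene table, 105 in all, 84 have a probe on the array, out of 21368 named genes that do. Of these 84, 82 were tested, since a probe of theirs was well above background on 4 or more of the 8 arrays, among 13053 tested genes in all. They are 37 genes of complex I, 4 of complex II, 9 of complex III, 14 of complex IV, 17 of complex V, and Cycs. The other two, Cox7b2 and Cox8c, were not well above background on any array.

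The study compared 4 Fto -/- with 4 Fto +/+ samples of total RNA from thoracic aorta, each labelled with Cy3 and read on an array of its own. Per the labels, all mice were male, with a C57BL6J/NMRI background in both genotypes. The labels give no age, no cell-restricted promoter and no construct for the deletion, so it is described only as the genotype Fto -/-. They do not say that the samples were separate animals, so a p-value here speaks only of how far these samples spread, which may be partly technical. The labels' free-text description names the opposite genotype of the title in every sample, and titles were used. Fto, a demethylase of adenosine in RNA, lay at -2.53, -2.19, -2.56 and -2.77 in Fto -/- replicates 1 to 4, and at 0.60, 0.85, 0.47 and 0.35 in Fto +/+ replicates 1 to 4. These are log2 levels relative to the 75th percentile of the array, the scale of every level given below. Fto was lower by 3.08 ± 0.15 on the log2 scale (SE; adjusted p = 0.000403 by limma; exact two-sided permutation p = 0.0286, the smallest that 4 against 4 samples can give), with no overlap, as the titles have it.

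The 75th percentile of intensity ran from 294.9 to 415.6 between arrays. All 8 smooth muscle markers were tested. Their level (the mean of the genes, each centred over the 8 arrays) was -0.21, 0.02, -0.19 and -0.10 in Fto -/- and 0.06, 0.08, 0.04 and 0.29 in Fto +/+, with no overlap. Their median log2 difference was -0.29, with 0 of 8 past the threshold. Lmod1 (-0.78 ± 0.17 SE), Itga8 (-0.39 ± 0.10) and Cnn1 (-0.32 ± 0.10) lay lower without overlap, while Acta2, the smooth muscle actin, was at 0.08 ± 0.10. The part of this in the members' levels was not tested. Both probes of Xist were well above background on all 8 arrays and the probes of Ddx3y, Kdm5d and Eif2s3y on 0 of 8, which goes against the sex given in the labels, in both genotypes alike. Because a piece of vessel was measured whole, fewer cells of a type and less RNA per cell cannot be told apart.

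The respiratory chain sits in the inner mitochondrial membrane. Complex I takes electrons from NADH and complex II takes them from succinate; both pass them to ubiquinone, from which complex III hands them to cytochrome c and complex IV to oxygen. The protons pumped by complexes I, III and IV drive ATP synthase. The members studied are encoded in the nucleus, and brown fat, heart and oxidative skeletal muscle are known for holding much of this machinery, while smooth muscle of large arteries is known for its use of glycolysis. The transcription factors NRF-1, the GABP complex (an ETS family factor), YY1 and the ERR receptors are known regulators of nuclear genes of this kind.

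Promoters from 250 bases before to 50 bases after the RefSeq start, on build GRCm38.p6, were at hand for 67 of the 84 members, 72 promoters in all. The 4 shown belong to genes to which the values below return, and together they hold each kind of element searched. Capitals mark the matches, on either strand.

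Sdhb: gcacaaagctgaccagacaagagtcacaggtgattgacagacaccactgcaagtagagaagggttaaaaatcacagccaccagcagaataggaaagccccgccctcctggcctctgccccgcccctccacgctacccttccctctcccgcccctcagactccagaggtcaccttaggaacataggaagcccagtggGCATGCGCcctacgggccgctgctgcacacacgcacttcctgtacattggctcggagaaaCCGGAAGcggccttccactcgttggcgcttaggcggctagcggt
Sdhd: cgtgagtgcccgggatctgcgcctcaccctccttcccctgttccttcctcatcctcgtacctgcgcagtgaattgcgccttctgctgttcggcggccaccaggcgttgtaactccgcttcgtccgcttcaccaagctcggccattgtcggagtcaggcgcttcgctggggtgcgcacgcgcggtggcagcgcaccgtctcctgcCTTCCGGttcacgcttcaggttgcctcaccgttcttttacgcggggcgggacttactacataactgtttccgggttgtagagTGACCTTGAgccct
Cycs: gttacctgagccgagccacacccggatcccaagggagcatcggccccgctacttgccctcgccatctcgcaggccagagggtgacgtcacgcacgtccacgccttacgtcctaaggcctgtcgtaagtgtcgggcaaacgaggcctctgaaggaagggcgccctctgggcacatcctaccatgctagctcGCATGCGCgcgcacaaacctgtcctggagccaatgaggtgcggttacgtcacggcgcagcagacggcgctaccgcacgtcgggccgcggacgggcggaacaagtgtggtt
Ndufs4: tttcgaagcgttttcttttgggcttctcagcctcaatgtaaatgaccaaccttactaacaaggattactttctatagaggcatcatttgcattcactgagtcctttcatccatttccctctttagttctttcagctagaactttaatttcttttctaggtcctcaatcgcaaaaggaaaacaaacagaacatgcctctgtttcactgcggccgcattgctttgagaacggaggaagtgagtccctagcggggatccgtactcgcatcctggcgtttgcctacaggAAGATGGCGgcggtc

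The Sdhb promoter is chr4:140961021-140961320 on the plus strand, and that of Sdhd is chr9:50603800-50604099 on the minus strand. Those of Cycs and Ndufs4 are chr6:50566520-50566819 and chr13:114388045-114388344, both on the minus strand. The letters GCATGCGC, the core of an NRF-1 site, stand in 11 of the 72 members' promoters (15.3%), against 2.71% of all 32851 promoters in the RefSeq table and 4.73% of the promoters of tested genes. They are in the promoters of Sdhb and Cycs, and also of Uqcrc1 and Uqcr11 among others. CCGGAAG, the core of ETS family sites, stands in 17 (23.6%), Sdhb and Sdhd included, against 8.86% of all promoters and 15.9% of those of tested genes. AAGATGGCG, a YY1 site, stands in 7 (9.72%), Ndufs4 included, against 1.40% and 2.73%. TCAAGGTCA, an ERR response element, stands in 2 (2.78%), those of Sdhd and Atp5g3, against 0.423% and 0.301%. All 4 were searched on both strands, and none overlaps another in the promoters shown. A match is a stretch of letters and not a site shown to be bound. The tested members with the NRF-1 core (11 genes) had a median log2 difference of 0.12, and the 55 with a promoter that lacks it had 0.11. For the ETS core the medians were 0.10 (17 genes with it) and 0.12 (49 without).

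Most of the 82 genes lay slightly above their Fto +/+ level, and no subunit gene passed the test in either direction. By limma with Benjamini-Hochberg adjustment over every probe tested, 0 of 82 were higher and 0 of 82 lower in Fto -/- at an adjusted p under 0.05. Of all tested genes 0.896% were higher and 0.904% lower, shares so small that 0 of 82 does not set the members apart. At an unadjusted p under 0.05, 3 members were higher (Ndufa4l2, Ndufs4 and Sdhb), against 8.69% of all tested genes, and 1 was lower (Ndufv3), against 12%. No member's 4 Fto -/- values lay wholly above or wholly below its 4 Fto +/+ values, where 5.01% of all tested genes did so upward and 9.05% downward. The fitted difference was above 0 in 65 of the 82 members (79.3%), against 43.8% of all tested genes. Its median was 0.12 over the members, with a range from -0.52 to 0.64, and -0.04 over all tested genes. The median standard error of a member's difference was 0.14.

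**Figure D1:**
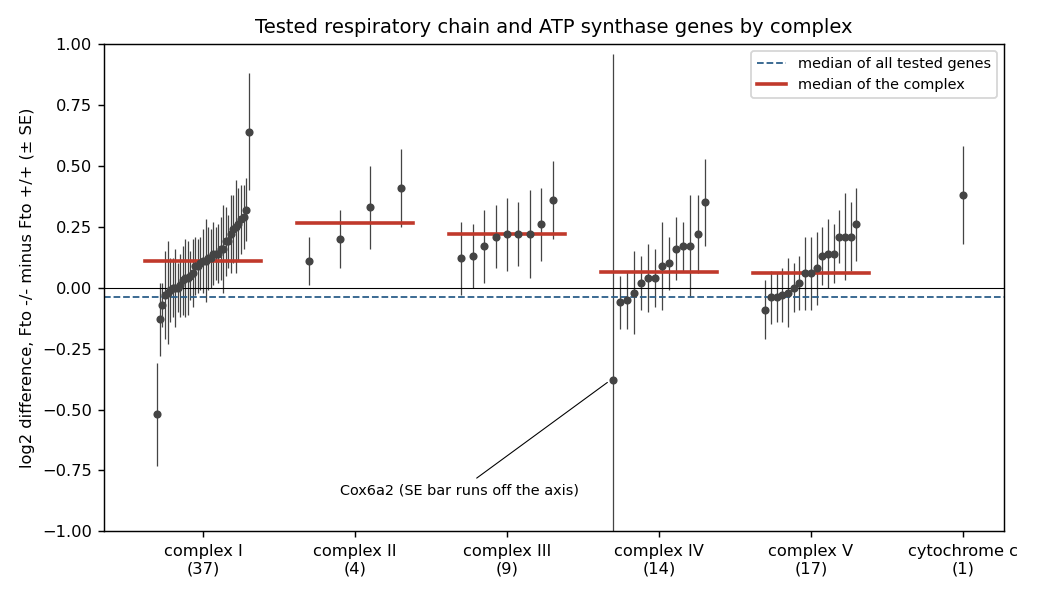
Log2 difference of Fto -/- minus Fto +/+ for each of the 82 tested members (points, ± SE from limma, 4 samples per genotype), sorted within each complex; red bars are medians and the dashed line is the median of all tested genes. All 9 genes of complex III and all 4 of complex II lie above 0, while complexes I, IV and V straddle it.

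The complexes differed in how far above 0 they lay. Complex II had a median log2 difference of 0.27, with 4 of 4 genes above 0, and complex III one of 0.22, with 9 of 9. Complex I lay at 0.11, with 29 of 37 above 0, and complexes IV and V both at 0.06, with 10 of 14 and 12 of 17. Cycs alone differed by 0.38 ± 0.20 (SE). These medians are descriptions, and the differences between complexes were not tested.

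In complex I, the 7 core subunits that carry the flavin, the iron-sulfur clusters and the ubiquinone site had a median difference of 0.16, and the 30 accessory subunits one of 0.10. Among the core, Ndufv1, which binds NADH and flavin, was at 5.58, 5.41, 5.93 and 5.83 in Fto -/- replicates 1 to 4 and at 5.29, 5.33, 5.46 and 5.51 in Fto +/+ replicates 1 to 4. Replicate 2 of Fto -/- lay inside the Fto +/+ range and the others above it (difference 0.29 ± 0.13 SE; adjusted p = 0.275 by limma). Ndufs8, which carries iron-sulfur clusters, lay at -0.02 ± 0.21 (SE).

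Ndufs4, an accessory subunit whose loss is a known cause of mitochondrial disease, was at 4.13, 3.83, 4.40 and 4.22 in Fto -/- and at 3.86, 3.77, 3.90 and 3.76 in Fto +/+. Again replicate 2 of Fto -/- alone lay within the Fto +/+ values. The difference was 0.32 ± 0.13 (SE; adjusted p = 0.227 by limma).

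Ndufa4l2 is a paralog of Ndufa4 known to be induced by hypoxia-inducible factor and to lower complex I activity. It was at 2.30, 2.05, 2.47 and 2.34 in Fto -/- and at 2.21, 1.55, 1.82 and 1.00 in Fto +/+. Here the spread lay in the Fto +/+ samples, with an SD of 0.51 against 0.17, and replicate 1 of Fto +/+ reached into the Fto -/- values. The difference, 0.64 ± 0.24 (SE; adjusted p = 0.198 by limma), had the smallest adjusted p of the 82. It was 0.06 among the 4 arrays of the first row of the slide, which hold the first Fto +/+ replicate alone of its genotype. Ndufa4 itself, now counted by many with complex IV, differed by 0.24 ± 0.14.

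Ndufv3, an accessory subunit of the NADH-binding module, was the member with the most negative difference. Its brightest probe was at 6.34, 5.80, 6.87 and 6.41 in Fto -/- and at 6.91, 6.65, 6.95 and 6.97 in Fto +/+, a difference of -0.52 ± 0.21 (SE; adjusted p = 0.230 by limma). Replicate 3 of Fto -/- lay within the Fto +/+ range. A dimmer probe of the same transcript (NM_030087) went the other way, at 2.17, 1.43, 2.23 and 2.25 in Fto -/- and 1.84, 1.44, 1.85 and 2.14 in Fto +/+ (0.20 ± 0.22 SE), so the gene's direction depends on the probe.

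Of the members' 111 tested probes, 1 passed the test, where 0.904% of all tested genes passed as lower by their brightest probe. It is a dimmer probe of Ndufb11, an X-linked accessory subunit of the membrane arm, and is named here after its value was seen. It was at -1.78, -2.00, -1.85 and -1.87 in Fto -/- and at -1.24, -1.14, -1.32 and -1.19 in Fto +/+. The genotypes did not overlap, and the probe was lower in Fto -/- by a log2 difference of -0.65 ± 0.09 (SE; adjusted p = 0.0162 by limma). The brightest probe of Ndufb11, matched to the same transcript (NM_019435), was at 6.57, 6.24, 6.70 and 6.64 against 6.51, 6.54, 6.46 and 6.29, a difference of 0.09 ± 0.12 (adjusted p = 0.729). The call of the dimmer probe was lost with the slide row as a block (adjusted p = 0.0931), within either row (0.551 and 0.858), with the replicate number as a block (0.0802), with normexp background correction (a difference of -0.33; adjusted p = 0.0774), with no filter on dim probes (0.0598), and without Fto +/+ replicate 1 (0.0526), Fto -/- replicate 3 (0.0563) or Fto -/- replicate 4 (0.0611). Of 23 members with more than 1 tested probe, 5 had probes of opposite sign, and in 3 of all 23 (Ndufb11, Ndufv3 and Ndufb5) the probes differed by more than 0.3. Ndufb5, a membrane arm subunit, differed by 0.28 ± 0.14 with one probe and by -0.15 ± 0.14 with the other.

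Complex II is both a citrate cycle enzyme and a respiratory complex. Sdhb, its iron-sulfur subunit (NM_023374), was at 5.84, 5.42, 6.21 and 6.07 in Fto -/- and at 5.39, 5.45, 5.58 and 5.49 in Fto +/+. Of the Fto -/- samples, replicate 2 lay inside the Fto +/+ range and the others above it. The difference was 0.41 ± 0.16 (SE; 95% interval 0.03 to 0.78; adjusted p = 0.231 by limma), and 0.28 ± 0.21 with a second probe. With limma's array weights, Sdhb differed by 0.53 with an adjusted p of 0.0475, the only member to pass under any setting tried. The weights were lowest for Fto +/+ replicate 4 (0.367) and Fto -/- replicate 2 (0.45), and highest for Fto -/- replicate 4 (2.34). Sdhd, a membrane anchor, was at 4.35, 3.99, 4.76 and 4.70 against 4.14, 4.01, 4.20 and 4.11, which is the same order of the Fto -/- samples (0.33 ± 0.17 SE). Sdha, the flavoprotein, differed by 0.20 ± 0.12, and Sdhc, the other anchor, by 0.11 ± 0.10.

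In complex III the differences were the most even, from 0.12 to 0.36 over the 9 genes. The catalytic pair was alike, with cytochrome c1 (Cyc1) at 0.26 ± 0.15 and the Rieske iron-sulfur protein (Uqcrfs1) at 0.22 ± 0.18 (SE). The large core proteins Uqcrc1 and Uqcrc2 were at 0.12 ± 0.15 and 0.22 ± 0.15. The 5 small subunits had a median of 0.21, among them Uqcr11 at 0.21 ± 0.13. Uqcrq, a small subunit first known as a ubiquinone-binding protein, was at 6.61, 6.10, 6.87 and 6.69 in Fto -/- and at 6.19, 6.11, 6.31 and 6.22 in Fto +/+. Replicate 2 of Fto -/- was the lowest of all 8 arrays and the other Fto -/- samples were the highest (0.36 ± 0.16 SE; adjusted p = 0.271 by limma).

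Cycs, the electron carrier between complexes III and IV, was at 4.85, 4.54, 5.43 and 5.31 in Fto -/- and at 4.61, 4.52, 4.83 and 4.67 in Fto +/+. The SD was 0.41 in Fto -/- against 0.13 in Fto +/+, and the genotypes overlapped through replicate 2 of Fto -/- (0.38 ± 0.20 SE; adjusted p = 0.335 by limma; 0.16 with a dimmer probe).

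**Figure D2:**
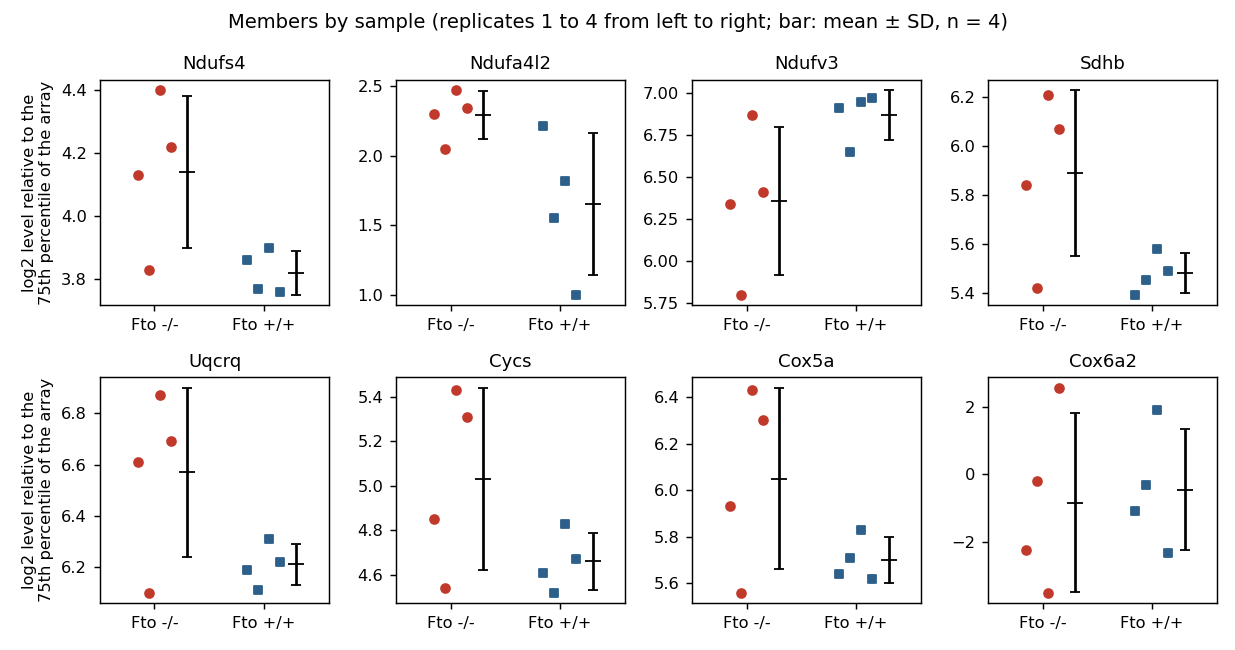
Log2 level of 8 members in each sample, relative to the 75th percentile of its array (circles, Fto -/-; squares, Fto +/+; black bars, mean ± SD of 4 samples); axes differ between genes. In Ndufs4, Sdhb, Uqcrq, Cycs and Cox5a, replicate 2 of Fto -/- lies within or below the Fto +/+ values and the others above, while Cox6a2 spans 6.07 log2 units.

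Complex IV holds several pairs of isoforms of which one serves most tissues and the other a few. Of its 14 tested genes, Cox5a, a subunit on the matrix side, was at 5.93, 5.56, 6.43 and 6.30 in Fto -/- and at 5.64, 5.71, 5.83 and 5.62 in Fto +/+. Replicate 2 was the lowest of all 8 samples (0.35 ± 0.18 SE; adjusted p = 0.338 by limma). The ubiquitous forms Cox4i1, Cox6a1 and Cox8a differed by 0.02 ± 0.11, -0.05 ± 0.12 and 0.10 ± 0.11 (SE). The 95% interval of Cox4i1, from -0.24 to 0.28, leaves room for a change of either sign. Cox6b1 and Cox7a2 differed by 0.17 ± 0.21 and 0.16 ± 0.13, Cox7b by 0.22 ± 0.16, and Cox7a2l, a factor in supercomplex assembly, by -0.06 ± 0.11. The form of Cox4 that is known from lung and oxygen-sensing tissue, Cox4i2, differed by 0.17 ± 0.10, and the testis form Cox6b2 by 0.04 ± 0.12.

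Cox6a2, the heart and skeletal muscle form, had the widest range of the tested members. It was at -2.23, -0.19, -3.51 and 2.57 in Fto -/- and at -1.08, -0.33, 1.92 and -2.34 in Fto +/+. High and low samples occurred in both genotypes, and the difference of -0.38 ± 1.34 (SE; adjusted p = 0.902 by limma) was small beside that spread. It was well above background on 3 of 4 Fto -/- and 4 of 4 Fto +/+ arrays. The level of the 7 tested of 9 cardiac muscle markers was -0.56, 0.55, -1.62 and 1.88 in Fto -/- and -0.72, 0.88, 0.00 and -0.41 in Fto +/+. That of the 5 tested of 9 skeletal muscle markers was 2.48 in Fto +/+ replicate 3 and at most 0.48 elsewhere. The highest Cox6a2 in each genotype was thus the sample highest for cardiac (Fto -/- replicate 4) or for skeletal (Fto +/+ replicate 3) markers; the part of such tissue in the values was not tested. Without the 3 isoforms of restricted tissues, complex IV had a median of 0.09 over 11 genes.

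In complex V the parts of the enzyme differed little. The catalytic head (Atp5a1, Atp5b, Atp5c1, Atp5d and Atp5e) had a median of 0.13, with 4 of 5 above 0. Of these, Atp5e was at 7.19, 6.95, 7.40 and 7.22 in Fto -/- and at 7.06, 6.88, 6.98 and 7.00 in Fto +/+, with replicate 2 inside the Fto +/+ range (0.21 ± 0.11 SE; adjusted p = 0.350 by limma). The genes Atp5g1, Atp5g2 and Atp5g3, which encode the identical mature c subunit of the rotor, lay at 0.02 ± 0.11, -0.04 ± 0.11 and -0.02 ± 0.14. The peripheral stalk (Atp5pb, Atp5h, Atp5j and Atp5o) had a median of 0.01, from -0.09 ± 0.12 for Atp5h to 0.21 ± 0.18 for Atp5o. All 5 small membrane subunits lay above 0, with a median of 0.14, led by Atp5mpl at 0.26 ± 0.15 and Atp5j2 at 0.21 ± 0.14. The values of Atp5mpl were 5.64, 5.15, 5.79 and 5.77 in Fto -/- and 5.39, 5.30, 5.38 and 5.26 in Fto +/+, so that replicate 2 was again the lowest of the 8.

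The Fto -/- samples lay further apart than the Fto +/+ samples, and most members placed them in the same order. The level of the 82 genes (their mean after each was centred over the 8 arrays) was 0.01, -0.26, 0.24 and 0.23 in Fto -/- replicates 1 to 4, and -0.06, -0.04, 0.02 and -0.14 in Fto +/+. Fto -/- replicate 2 was the lowest of all 8 arrays in 63 of the 82 genes, and Fto -/- replicate 3 the highest in 61. The median SD of a member was 0.25 in Fto -/- and 0.08 in Fto +/+, against 0.17 and 0.19 over all tested genes. The SD was the larger in Fto -/- in 76 of 82 members, against 43.2% of all tested genes; the difference in spread was not tested. Fto -/- replicate 2 was below every Fto +/+ sample in 63 members, against 30.3% of all tested genes.

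**Figure D3:**
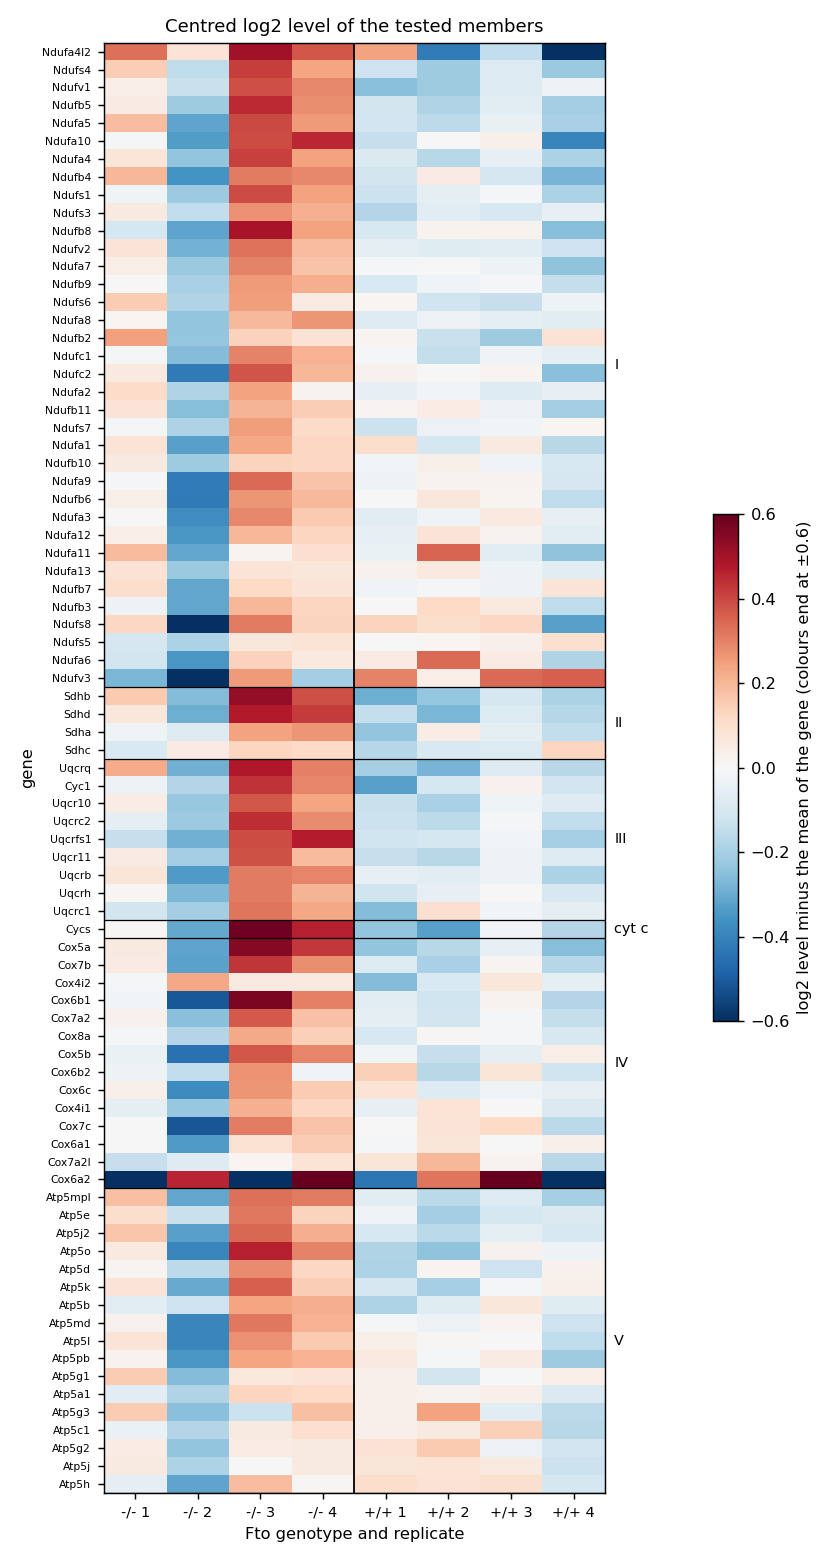
Log2 level of the tested members, 1 of them not drawn (rows, by complex, sorted by difference) in each sample (columns), minus the mean of that gene; colours end at ±0.6. The column of Fto -/- replicate 2 is blue and that of replicate 3 red in nearly every complex, while the Fto +/+ columns are mostly pale. Among the genes that depart from this are Cox6a2, Cox4i2, which is highest in Fto -/- replicate 2, and Ndufv3, which is higher in Fto +/+.

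Each complex followed that order. Complex III was at 0.01, -0.25, 0.38 and 0.28 in Fto -/- and at -0.16, -0.12, -0.02 and -0.13 in Fto +/+. Complex I was at 0.05, -0.29, 0.27 and 0.17 against -0.03, -0.02, -0.01 and -0.15, and complex V at 0.05, -0.26, 0.21 and 0.15 against -0.02, -0.03, 0.00 and -0.10. Complex II was at 0.03, -0.14, 0.34 and 0.30 against -0.21, -0.14, -0.08 and -0.09. In each of these, Fto -/- replicates 3 and 4 were the highest 2 of the 8 samples and the genotypes overlapped through replicate 2. Complex IV departed from it through Cox6a2: without the isoforms of restricted tissues it was at -0.01, -0.32, 0.31 and 0.21 against -0.04, -0.03, 0.00 and -0.11.

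The size of the differences moved with single samples. Without Fto -/- replicate 2, the median of the members was 0.22 and 76 of 82 lay above 0, against 45.2% of all tested genes. In that fit 31 were higher at an unadjusted p under 0.05, a count for which the share over all tested genes is not given here. The smallest adjusted p was 0.0634 by limma. Without Fto -/- replicate 3 the median was 0.04 and 53 lay above 0, against 44.2% of all tested genes. Without replicate 4 they were 0.08 and 55, against 43.5%. Among the 4 arrays of the first slide row (Fto -/- replicates 1 to 3 and Fto +/+ replicate 1) the median was 0.07. There 52 members lay above 0, against 40.8% of all tested genes. The second row holds Fto -/- replicate 4 and Fto +/+ replicates 2 to 4, so its values rest on 1 Fto -/- sample. Among its arrays the median was 0.26 with 79 above 0, against 46.9%. With row as a block the median was 0.17 and 73 lay above 0, against 43.2%. No member passed the adjusted threshold in any of these.

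**Figure D4:**
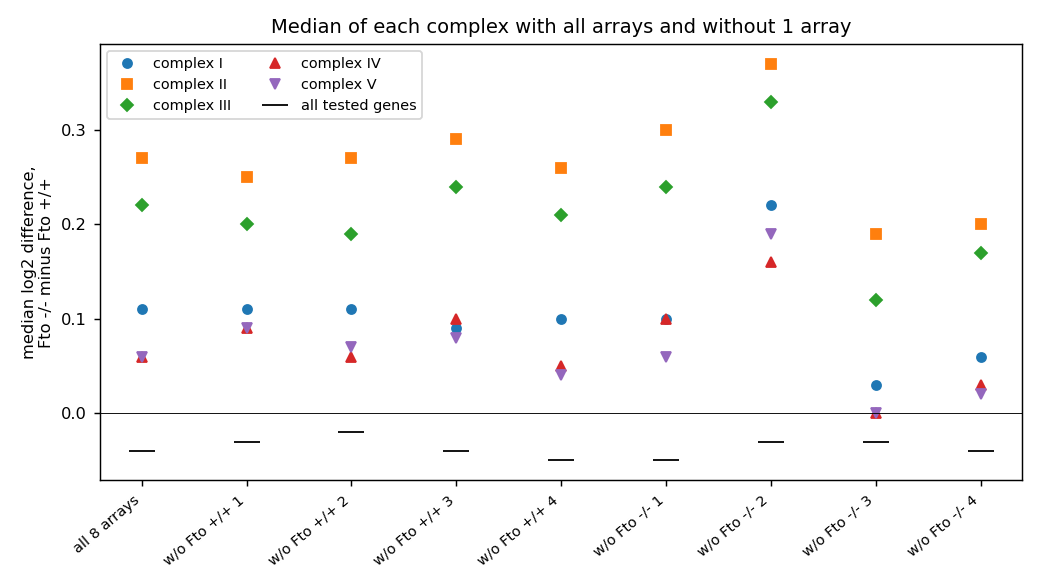
Median log2 difference (Fto -/- minus Fto +/+) of each complex with all 8 arrays and with each array left out in turn; black dashes are the median of all tested genes. Complexes II and III keep the highest medians throughout, from 0.12 upward, and all complexes shift up without Fto -/- replicate 2 and down without replicate 3.

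Among the Fto -/- samples, markers of brown fat stood in the same order as the members. In Fto +/+ the orders differed, with replicate 4 lowest for the members (-0.14) but above replicates 1 and 2 for the markers. The level of the 12 tested of 14 brown adipocyte markers was 0.28, -0.21, 1.34 and 1.05 in Fto -/- and -0.95, -1.23, -0.08 and -0.20 in Fto +/+, highest in the same samples, Fto -/- replicates 3 and 4, as the members. Their median difference was 1.30, with 9 of 12 above 0, against 43.8% of all tested genes. At an unadjusted p under 0.05 by limma, 8 were higher, against 8.69% of all tested genes, and 0 were past the threshold. Ucp1, the uncoupling protein of brown fat, was at 5.12, 3.99, 6.83 and 6.61 against 1.54, 0.88, 4.06 and 4.47 (2.90 ± 0.94 SE; adjusted p = 0.153 by limma). The 2 complex IV isoforms left out of the members are on this list. Cox7a1 was at 3.95, 3.56, 5.98 and 5.39 in Fto -/- and at 2.26, 2.03, 3.43 and 3.16 in Fto +/+, with no overlap (2.00 ± 0.56 SE; adjusted p = 0.113). Cox8b differed by 1.82 ± 0.61 (adjusted p = 0.164). Of the 12, Cidea (1.88 ± 0.47 SE) and Fabp3 (1.19 ± 0.30) had the smallest unadjusted p. Both were higher without overlap (adjusted p = 0.0884 and 0.0923 by limma). The brown adipocyte markers Dio2 (-0.07 ± 0.35 SE), Prdm16 (-0.13 ± 0.15) and Zic1 (-0.23 ± 0.13) lay below 0. White adipocyte markers, 9 of 10 tested with Lep not above background on any array, were at -0.27, -0.05, 0.89 and 0.43 against -0.50, -1.26, 0.65 and 0.10. T cell and thymocyte markers, 8 of 10 tested, were at 1.29, -1.22, 1.85 and 1.13 against -1.51, 1.65, -1.78 and -1.41, so Fto -/- replicate 2 was lower than the other Fto -/- samples here too. The part of these tissues in the members' levels was not tested.

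**Figure D5:**
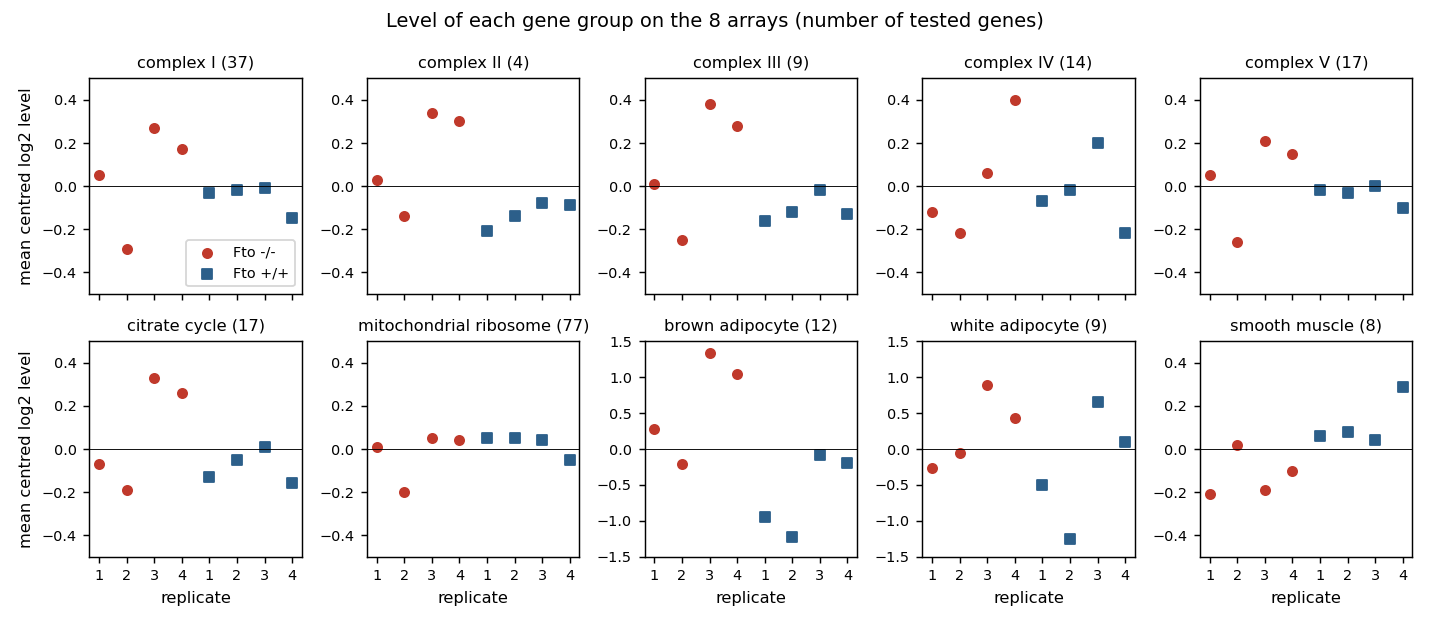
Level of each gene group (mean of its tested genes, each centred over the 8 arrays) in Fto -/- (circles) and Fto +/+ (squares) replicates 1 to 4; the y axis runs from -0.5 to 0.5, and from -1.5 to 1.5 for the adipocyte markers. The citrate cycle genes and complexes I to III and V share the order of the Fto -/- samples. The mitochondrial ribosome has that order too, at 0.01, -0.20, 0.05 and 0.04, and its Fto +/+ samples lie between -0.05 and 0.05.

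Of the other genes of the pathway, 0 members of each list passed the threshold in either direction. The 17 citrate cycle genes, which supply the electrons, had a median difference of 0.16, with 13 above 0 and levels of -0.07, -0.19, 0.33 and 0.26 against -0.13, -0.05, 0.01 and -0.16. Dlat, of the pyruvate dehydrogenase complex, lay at -0.26 ± 0.09 without overlap (adjusted p = 0.176 by limma). The 12 genes of ubiquinone synthesis had a median of 0.08; Coq4 was at 1.00, 1.11, 1.24 and 1.11 in Fto -/- and at 0.72, 0.83, 0.72 and 0.78 in Fto +/+, with no overlap (0.35 ± 0.09 SE; adjusted p = 0.0895).

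Assembly factors lay on both sides of 0, and their difference from the subunits was not tested. Those of complex I had a median of 0.04 with 10 of 16 above 0, those of complexes II, III and V 0.04 with 7 of 13, and those of complex IV -0.06 with 6 of 19. Like the members, these lists were lowest in Fto -/- replicate 2, at levels of -0.19, -0.21 and -0.26 in turn. Ttc19, which tends complex III after the Rieske protein is inserted, was at 1.40, 1.12, 1.46 and 1.38 in Fto -/- and at 1.85, 1.92, 1.71 and 1.81 in Fto +/+. The genotypes did not overlap, but the test was missed (-0.48 ± 0.10 SE; adjusted p = 0.0631 by limma). Uqcc2, also of complex III assembly, lay at 0.29 ± 0.10 without overlap (adjusted p = 0.176). In complex I assembly, Tmem126b lay at -0.41 ± 0.17 without overlap and Ndufab1, the mitochondrial acyl carrier protein, at 0.63 ± 0.26 with overlap (adjusted p = 0.231 and 0.232). Ndufab1 is also an accessory subunit of complex I. Its symbol falls outside the rule for members, so it was counted in this list and not in complex I. In complex IV assembly, Higd2a lay at -0.29 ± 0.10 and Surf1 at -0.28 ± 0.10, both without overlap.

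The 77 genes of the mitochondrial ribosome, which makes the subunits encoded in mitochondrial DNA, had a median of -0.05, near the -0.04 of all tested genes, with 26 above 0. Among 19 regulators the median was -0.07. Pprc1, a coactivator of the PGC-1 family, lay lower in every Fto -/- sample than in any Fto +/+ sample (-0.53 ± 0.13 SE; adjusted p = 0.0844 by limma), and Ppara, a nuclear receptor of fatty acid oxidation, differed by 0.70 ± 0.26 (adjusted p = 0.201). The factors whose elements were searched in the promoters above lay at -0.03 ± 0.12 (Nrf1), -0.08 ± 0.11 (Gabpa), -0.27 ± 0.11 (Yy1) and 0.07 ± 0.12 (Esrra), none past the threshold. Glycolysis (17 genes) had a median of 0.05 with 13 above 0 (76.5%, near the 79.3% of the members). Aldoc, an aldolase, differed by 0.71 ± 0.23 without overlap (adjusted p = 0.153). Inner and outer membrane carriers (11 genes, Ucp1 among them) had a median of 0.00.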

How the data were processed

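Per the file headers, Agilent's Feature Extraction (version 11.0.1.1) made the deposited spot intensity values, background-subtracted and not scaled between arrays. The authors' series table gives log2 values for each array, centred per probe as found from the values, with a normalisation that the labels and headers do not name. From the intensity, log2 values minus the 75th percentile of each array were taken. Control spots (3671 per array) were left out, and 126 to 189 outlier spots per array were set to missing. The 25292 probes well above background on at least 4 of 8 arrays were tested with limma 3.58.1 (lmFit, eBayes) in R 4.3.3, with Benjamini-Hochberg adjustment over them and a threshold of 0.05. A gene's brightest tested probe stood for it. Genes were named through RefSeq accessions. The array is annotated on mm9, so array positions were not used. The number of arrays limits the precision.

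Named are, per complex, the 3 members of smallest p, those of largest and most negative difference, isoform sets, Cycs, Cyc1 and the Sdh genes. The 2 of smallest p are named from the lists of assembly factors, regulators, and smooth muscle and brown adipocyte markers. For the other lists, and for further markers such as Ucp1, that rule was not kept to. Others, among them Ndufb11, Ndufv1, Uqcrfs1, the regulators and the subgroups of complexes, were chosen after their values were seen. Some genes are counted but not reported by name here. Members and lists were chosen with earlier results of these data known. Alternatives were another background correction, scaling, filter, source of values or probe summary, a block for replicate number or slide row, array weights, and each sample left out. Normexp was planned on the mean signal and run on the median signal, a choice made after the data were seen. The fit was tested on simulated data. All arrays lay on 1 slide with 1 scan day.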

Additional observations from a re-analysis of the deposited data

Results flagged for a closer look

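By Dixon's criterion for 4 samples, applied to 76 sets of 4 values, where chance gives about 1 in 20, these stood apart. Atp5g2 was at 6.46 in Fto -/- replicate 2, against 6.74 to 6.75 in the other Fto -/- samples. Atp5h was at 6.33 in Fto +/+ replicate 4, against 6.52 to 6.54 in the other Fto +/+ samples. The level of complex I was -0.15 in Fto +/+ replicate 4, against -0.03 to -0.01 in the others.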

How the results depend on the processing

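Over 21 alternatives, 0 of the 82 members passed the threshold, except that 1 gene was higher with array weights (Sdhb, 0.53, adjusted p = 0.0475), and Fto kept its direction. Within slide row 1 Fto differed by -3.02 (adjusted p = 0.154) and within row 2 by -3.33 (0.320), fits that hold 1 sample of a genotype, assumed to vary like the other. Medians ran from 0.03 to 0.22 for complex I, 0.12 to 0.36 for complex III, 0.00 to 0.19 for complex IV and -0.05 to 0.20 for complex V. Complex II ran from 0.19 to 0.44, and the 0.44, within row 2, lay over 1 SD of its level from the main value. The cause of these shifts was not tested.

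With the replicate number as a replicate block, 0 genes passed in either direction and the median was 0.12, while the dimmer Ndufb11 probe missed the threshold (-0.65, adjusted p = 0.0802). Same-numbered samples correlated at 0.155, -0.023, -0.019 and -0.041, and pairs of unlike number at -0.315 to 0.186. These values cannot settle whether the numbers stand for a pairing. Replicates 1 of both genotypes lay in slide row 1, and replicates 4 of both in row 2.

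Of the 31 named members, 8 that lay near 0 or varied widely changed sign somewhere. With array weights, Cox6a1 and Atp5g3 were both at 0.05 and Cox6b2 at 0.00. With normexp, Atp5g1 was at -0.01. With slide row as a block, Cox6a1 was at 0.02, Cox6a2 at 0.96, Cox6b2 at -0.03 and Atp5g3 at 0.03. Within row 1, Cox6b2 was at -0.11 and Atp5g1 at -0.05. Within row 2, Cox6a1 was at 0.12, Cox6a2 at 2.82, Cox7a2l and Atp5g2 both at 0.06 and Atp5g3 at 0.18. With each sample left out in turn, Cox4i1 ran from -0.04 to 0.10, Cox6a1 from -0.10 to 0.06, Cox6a2 from -1.52 to 0.51, Cox6b2 from -0.05 to 0.09, Atp5g1 from -0.03 to 0.11, Atp5g2 from -0.09 to 0.03 and Atp5g3 from -0.09 to 0.06. Cox7b2 and Cox8c, below background, have no measured direction.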
